A study of Mus musculus with 12 samples.

Results

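The type I interferon response genes described here are 38 genes that cells switch on when they sense interferon, or that carry the interferon signal. They were chosen by name from the 36121 genes of the deposited table, with earlier results of these data known. A count of members beside the share of all genes is therefore a description. Each of the 38 symbols had a single row, so every member was measured. RNA was sequenced from the spinal cord of 12 mice of the C57BL6 strain aged 3 months, in 3 groups of 4, with 2 males and 2 females in each. Control mice were Tardbp-fl/fl, with both copies of Tardbp floxed and no Cre. The mice called cHet were Gfap-Cre; Tardbp-fl/+, and those called cKO were Gfap-Cre; Tardbp-fl/fl, so every mouse carried at least 1 floxed allele and only cHet and cKO carried Cre. Tardbp encodes TDP-43, a nuclear RNA-binding protein. Cre was driven by Gfap, an astrocyte gene; the labels do not name the Cre line or the cells that recombined. The samples were whole cord, so the values average over astrocytes, microglia, oligodendrocytes, neurons and vessels, and fewer cells of a type cannot be told apart from less RNA per cell.

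Type I interferons bind a receptor on the cell surface, whose kinases activate transcription factors of the STAT family. A complex that holds STAT2 and IRF9 enters the nucleus and binds a short promoter element, the interferon-stimulated response element (ISRE), at its target genes. The targets include sensors of foreign RNA, proteins that block viral RNA or membranes, and the ubiquitin-like protein ISG15 with its enzymes. In the brain and spinal cord the programme is known from viral infection and from inherited disorders of nucleic acid clearance, and microglia and astrocytes are among the cells that can express it.

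The ISRE core, which is GAAA, any 2 bases and GAAA again, was looked for on both strands in RefSeq promoters of build GRCm38.p6, each 300 bases long and reaching past the transcription start. The promoter table held 32 of the 38 members, and 16 of these (50%) had the core, against 3.99% of all 27025 genes in that table. Neighbouring matches can overlap, and each gene counts once. The shorter core of the gamma-activated site, TTCNNNGAA, was in 9 of the 32 (28.1%) and in 9.55% of all genes. Upstream stretches of 5 members are shown because 3 of them (Ifit1, Ifit3 and Rsad2) rose in cKO, while Isg15 and Bst2 hold the element in the other orientation. Each line runs 5′ to 3′ along the strand of its gene, ends before the transcription start, and has the ISRE core in capitals, read as TTTC, any 2 bases and TTTC where the match is on the opposite strand.
Ifit1 (chr19:34640765-34640833, plus strand): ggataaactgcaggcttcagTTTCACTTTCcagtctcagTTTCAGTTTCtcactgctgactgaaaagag
Ifit3 (chr19:34583353-34583436, plus strand): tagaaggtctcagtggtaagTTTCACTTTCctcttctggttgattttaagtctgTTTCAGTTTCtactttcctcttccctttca
Rsad2 (chr12:26456533-26456602, minus strand): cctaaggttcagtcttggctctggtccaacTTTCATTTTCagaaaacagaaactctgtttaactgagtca
Isg15 (chr4:156200850-156200921, minus strand): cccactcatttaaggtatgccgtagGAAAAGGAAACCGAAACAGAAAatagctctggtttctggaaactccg
Bst2 (chr8:71537562-71537627, minus strand): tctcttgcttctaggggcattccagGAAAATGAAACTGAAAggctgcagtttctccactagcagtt
The Ifit1 and Ifit3 stretches each hold 2 separate matches, that of Rsad2 holds 1, and those of Isg15 and Bst2 hold 3 and 2 overlapping ones. Among the other risers, the windows of Oasl2 and Lgals3bp held no match to these letters, and the promoter table did not hold Ifi27. A match is a description of the sequence and not a measured binding site.

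TPM is the authors' normalized transcript abundance, corrected for transcript length, and each mouse had between 15188 and 15384 genes that reached 1 TPM. Tardbp was at 166 to 181 TPM in control, 158 to 178 in cHet and 140.5 to 151 in cKO, and all 4 cKO mice lay below every other mouse (log2 change against control -0.20 ± 0.04, SE; limma adjusted p = 0.0113). Summed TPM was 954895 to 978621 in control, 983452 to 1023990 in cHet and 1017860 to 1048380 in cKO, so the totals moved with genotype; each comparison below is therefore also given after rescaling to equal totals without mitochondrially encoded genes. The defining markers of the main cord cells were present, with Gfap at 1046 to 1546 TPM over the 12 mice.

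The level of these genes in control cord varied widely. The median of the control means was 5.70 TPM, with 3 members under 1 TPM, 12 between 1 and 5, 17 between 5 and 20, and 6 at 20 TPM or more. The most abundant were Ifi27 at 136 ± 10.001 TPM (SD, n = 4), Psmb10 at 79.1 ± 5.78 and Ifitm3 at 45.4 ± 3.13. Ifi44 averaged 0.914 TPM over the 12 mice and was the only member under the 1 TPM needed for testing, so 37 were tested. Rsad2 and Oas1a were under 1 TPM in both other groups and passed through their level in cKO.

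Mice with both Tardbp alleles floxed were first compared with and without Gfap-Cre, that is cKO against control. Of the 37 tested members 6 rose and none fell (limma adjusted p under 0.05, adjusted over all 15259 genes tested). They were Ifi27, Lgals3bp, Ifit1, Ifit3, Oasl2 and Rsad2. Over all genes 5.75% rose and 3.25% fell. At an unadjusted p under 0.05 limma had 19 members higher and none lower, against 13.9% and 8.81% of all genes. After rescaling to equal totals without mitochondrially encoded genes 3.05% of all genes rose, and the same 6 members were called. With no filter on low values 5 of all 38 members rose, against 2.53% of all genes, and Ifit3 was the one not called. The log2 difference was above 0 in 34 of the 37 and its median was 0.28, beside a median of 0.01 over all genes, of which 54.2% were above 0. In 11 members all 4 cKO mice lay above all 4 control mice, a pattern seen in 10.5% of all genes. In none did they lie below, as in 6.59% of all genes. Rsad2 is among the 6, the 19 and the 11, and passed the 1 TPM filter only through its level in cKO.

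Ifi27, a small membrane protein of the interferon-inducible ISG12 family, had the smallest adjusted p of the members and the highest level. Its control mice were at 137, 130.3, 128 and 150.2 TPM, its cHet mice at 152, 151, 158 and 139, and its cKO mice at 202, 210.2, 229.7 and 193. Every cKO mouse was above every other mouse, while control and cHet overlapped. The rise against control was 0.61 ± 0.06 on the log2 scale (SE; 1.53-fold, limma adjusted p = 0.000153). Ifi27 lies on chromosome 12 (103434211 to 103440239, plus strand, GRCm38).

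Lgals3bp encodes a secreted glycoprotein that binds galectins. It was at 14.2, 16.9, 15.8 and 16.5 TPM in control, 12.9, 13.3, 13.4 and 12.6 in cHet and 19.96, 20.2, 20.5 and 20.2 in cKO. The 3 groups did not overlap, with cHet lowest and cKO highest, and the cKO mice were almost equal (SD 0.243 TPM). Its log2 change in cKO was 0.34 ± 0.05 (SE; limma adjusted p = 0.00196).

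Ifit1 and Ifit3 belong to a family that binds foreign RNA and blocks its translation, and their promoter stretches are shown above. Ifit1 was at 2.15, 2.04, 2.27 and 2.33 TPM in control, 2.14, 1.94, 2.42 and 2.02 in cHet and 2.89, 5.65, 4.21 and 3.97 in cKO. The cKO mice were all above the other 8, but spread widely, from the first replicate at 2.89 to the second at 5.65. The log2 change was 0.76 ± 0.15 (SE; limma adjusted p = 0.00847), and without cKO replicate 2 it was 0.62 (limma adjusted p = 0.0182). Ifit3 was at 11.1, 7.79, 11.6 and 12.1 TPM in control, 8.30, 9.96, 12.5 and 14.1 in cHet and 12.9, 24.96, 17.7 and 20.7 in cKO. The cKO mice were above all control mice, yet cKO replicate 1 lay below a cHet mouse. Its log2 change was 0.79 ± 0.21 (limma adjusted p = 0.0347). That call was lost without control replicate 1, 2 or 3 (limma adjusted p = 0.0630, 0.0983 and 0.0594) and without cKO replicate 2, 3 or 4 (0.0975, 0.0653 and 0.0950). Ifit3 has a near copy beside it, Ifit3b, between which reads can be split; Ifit3b also rose, by 0.67 ± 0.13, and the sum of both rose by 0.77 ± 0.18 (limma adjusted p = 0.0207). The other family member, Ifit2, was at 8.88 ± 1.24 TPM in control against 9.36 ± 0.452 in cKO (SD, n = 4), and its groups overlapped.

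Oasl2 is related to the enzymes that make oligoadenylate in response to double-stranded RNA. It was at 5.10, 5.25, 3.75 and 6.35 TPM in control, 3.74, 3.73, 4.73 and 5.18 in cHet and 8.51, 12.9, 7.60 and 9.12 in cKO. All cKO mice lay above all others, with cKO replicate 2 highest. The log2 change, 0.83 ± 0.18 (SE; 1.78-fold, limma adjusted p = 0.0122), was the largest among the tested members on the log2(TPM + 0.5) scale. That scale understates the changes of low genes such as Rsad2. Over the alternatives in processing and mice, the log2 change against control reached 1.02 for Rsad2 and at most 0.935 for Oasl2. Which of these genes changed most therefore depended on the setting. Rsad2 encodes viperin, an enzyme that makes a nucleotide which ends viral RNA chains. It was at 0.957, 0.573, 0.607 and 0.908 TPM in control, 0.935, 0.811, 0.774 and 0.625 in cHet and 1.43, 2.65, 1.33 and 1.35 in cKO. These are low levels, in which all cKO mice were above all others. The log2 change was 0.77 ± 0.20 (limma adjusted p = 0.0307), and the call was lost without control replicate 2 or 3 (limma adjusted p = 0.0860 and 0.0784). Without cKO replicate 2 Rsad2 fell under the 1 TPM filter and could not be tested; the remaining cKO mice, at 1.33 to 1.43 TPM, were still above the highest control mouse.

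**Figure D1:**
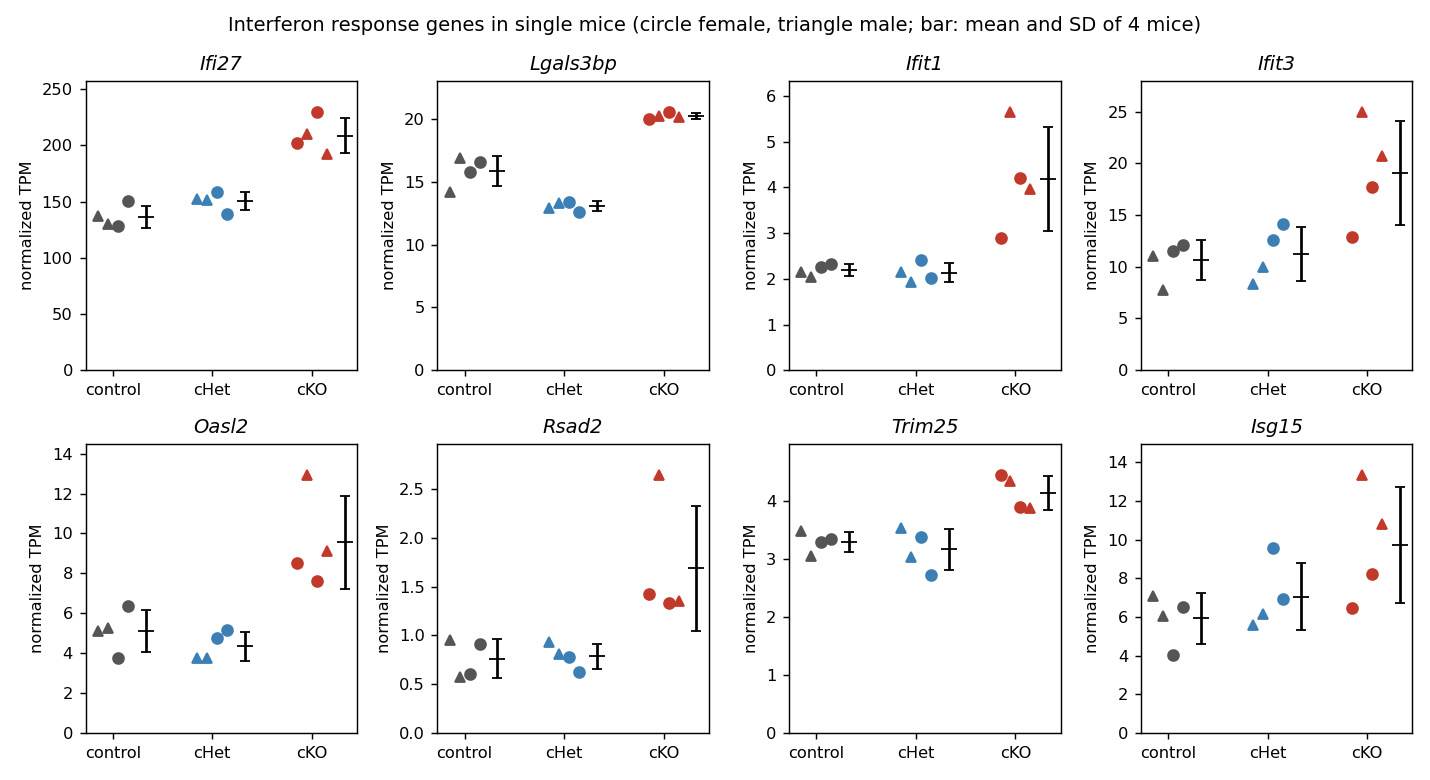
Normalized TPM (vertical axes, from 0) of 8 interferon response genes in each of 12 mice, by group, with the mean and SD of 4 mice beside the points. All 4 cKO mice lie above all 4 control mice except for Isg15, whose cKO mice run from 6.45 to 13.4 TPM and overlap with control.

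The authors' deposited table of this comparison held all 38 members and gave q-values from tests by likelihood ratio and by Wald statistic. By likelihood ratio, the authors' deposited table had 9 members higher in cKO at a q under 0.05 and none lower, where 6.50% and 2.92% of its genes were higher and lower. Those were the 6 above with Ifitm3, Isg15 and Trim25 added. By the Wald test, the authors' deposited table had 11 higher, with Bst2 and Gbp2 also included, and none lower, against 6.99% and 3.18% of its genes.

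The 31 tested members that were not called had log2 differences from -0.14 to 0.65, above 0 in 28, and limma adjusted p from 0.0662 to 0.955. Among the signal carriers, none of 4 was called. Stat2, a subunit gene of the nuclear complex, was at 21.1, 23.8, 20.005 and 26.7 TPM in control, 20.4, 22.7, 19.9 and 18.6 in cHet and 19.7, 21.4, 21.1 and 21.1 in cKO, and the 3 groups overlapped. The DNA-binding partner Irf9 was at 9.19 ± 0.879 TPM in control against 10.6 ± 0.635 in cKO (SD, n = 4), the amplifying factor Irf7 at 2.61 ± 0.414 and 3.78 ± 0.948, and Irf1, which also answers type II interferon, at 5.15 ± 0.846 and 5.81 ± 0.731.

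None of the 3 cytosolic RNA sensors was called. Ddx58, which encodes RIG-I, was at 8.30, 9.91, 11.1 and 7.497 TPM in control, 11.66, 9.25, 9.14 and 11.02 in cHet and 11.1, 10.8, 10.2 and 8.83 in cKO, with full overlap. The related helicase genes Ifih1 (MDA5) and Dhx58 (LGP2) were lower in level, at 1.98 ± 0.205 and 2.19 ± 0.491 TPM in control and 2.43 ± 0.680 and 2.91 ± 0.722 in cKO (SD, n = 4).

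The 9 effectors that act on RNA or nucleotides held 4 of the 6 calls, where 5.75% of all genes rose. Rsad2 among them passed the filter only through its level in cKO. The roles were chosen with earlier results of these data known, so how the calls fall among roles is a description. The other 5 members of that role were Ifit2, Oas1a, Eif2ak2, Samhd1 and Cmpk2. Cmpk2, a mitochondrial nucleotide kinase gene, lies 12751 bases from Rsad2 on chromosome 12 and is transcribed away from it. It was at 21.2, 21.4, 19.9 and 21.6 TPM in control, 22.9, 23.7, 21.2 and 19.0 in cHet and 23.5, 23.8, 23.8 and 22.9 in cKO. Its cKO mice were above all control mice by a narrow margin and overlapped with cHet. The neighbours thus stood far apart in level in control cord, with Cmpk2 at 21.0 ± 0.776 and Rsad2 at 0.761 ± 0.199 TPM (SD, n = 4). Oas1a, an oligoadenylate synthetase gene, averaged 0.977 ± 0.304 TPM in control and 1.46 ± 0.438 in cKO. Eif2ak2, the gene of the RNA-activated kinase PKR, was at 9.60 ± 0.488 and 10.2 ± 1.20, and Samhd1, which breaks down deoxynucleotides, at 18.7 ± 1.18 and 17.6 ± 2.54.

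Among the membrane effectors only Ifi27 was called. Ifitm3 hinders fusion of viruses with endosomes. It was at 47.6, 48.6, 42.7 and 42.8 TPM in control, 42.4, 50.7, 43.2 and 40.7 in cHet and 51.8, 53.6, 55.1 and 49.7 in cKO. All its cKO mice were above all control mice, but they overlapped with cHet. Its relative Ifitm2 was at 20.3 ± 3.52 and 22.5 ± 3.49 TPM (SD, n = 4), with overlap; reads of these similar genes can be split between them. Bst2 (tetherin), which holds budding virus at the cell surface, averaged 12.8 ± 2.52 TPM in control and 18.2 ± 3.29 in cKO, and Rtp4 at 5.55 ± 0.744 and 7.60 ± 2.09. In both genes cKO replicate 2 was highest and cKO replicate 1 fell within the range of control, as cKO replicate 4 also did for Rtp4.

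The guanylate-binding proteins are GTPases that attack membranes around pathogens, and none of 3 was called. Gbp3 was at 9.13, 4.54, 5.30 and 7.33 TPM in control, 5.04, 7.88, 6.26 and 7.33 in cHet and 6.92, 8.37, 7.20 and 8.18 in cKO, with overlap throughout. Gbp2 was at 2.05 ± 0.182 TPM in control against 2.79 ± 0.485 in cKO (SD, n = 4) and Gbp7 at 3.10 ± 0.466 and 3.69 ± 0.720. All 3 lie in 1 cluster on chromosome 3 and are similar in sequence.

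Of the 8 genes of ISG15, ubiquitin and ADP-ribose chemistry none was called against control. Isg15 itself was at 7.09, 6.06, 4.04 and 6.50 TPM in control, 5.58, 6.16, 9.55 and 6.93 in cHet and 6.45, 13.4, 8.23 and 10.8 in cKO, so that 3 cKO mice were above all control mice and 1 was not. Usp18, the protease that removes ISG15, was at 1.86 ± 0.589 TPM in control against 2.86 ± 1.07 in cKO (SD, n = 4), and Herc6, a ligase that attaches it in mice, at 3.85 ± 0.488 and 4.81 ± 0.703. Trim25, a ubiquitin ligase of the RIG-I pathway, was at 3.48, 3.05, 3.29 and 3.34 TPM in control and 4.45, 4.33, 3.90 and 3.88 in cKO. Its groups did not overlap (exact permutation p = 0.0286, the smallest that 4 against 4 mice allow), while limma over all genes gave an adjusted p of 0.0662. Dtx3l, a ubiquitin ligase, averaged 2.41 ± 0.1003 TPM in control and 2.85 ± 0.332 in cKO, but its partner Parp9 was at 5.77 ± 0.546 and 5.20 ± 0.654. Dtx3l and Parp9 are read from opposite strands and overlap by 682 bases, and whether the counting used strand is not given in the sources used here. Parp14, an ADP-ribosyltransferase gene, was at 1.001 ± 0.0856 and 1.40 ± 0.337, and Trim30a at 3.02 ± 1.09 and 3.99 ± 0.421.

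Of the 6 remaining genes, Lgals3bp was the one called. Psmb10, a subunit gene of the immunoproteasome, was at 82.8, 72.1, 84.8 and 76.9 TPM in control, 75.8, 92.8, 88.4 and 78.6 in cHet and 83.7, 88.3, 82.3 and 105 in cKO, with overlap. The nuclear body gene Sp100 was at 6.60 ± 1.11 TPM in control against 7.96 ± 0.959 in cKO (SD, n = 4), and Ifi35 at 5.63 ± 0.762 and 7.12 ± 1.20. Xaf1, which promotes cell death, was almost level at 16.8 ± 1.64 and 16.9 ± 1.37 TPM. Ifi44, not tested, averaged 0.82899 ± 0.360 TPM in control and 1.25 ± 0.617 in cKO.

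Mice with Gfap-Cre and a single floxed allele, cHet, were then set against control. Limma called none of 37 members and 0% of all genes. At an unadjusted p under 0.05 limma had 2 members higher and 2 lower, where 7.35% and 3.95% of all genes were higher and lower. The log2 differences ran from -0.27 to 0.23 and were above 0 in 17 members, with a median of -0.03 beside 0.01 over all genes. After the same rescaling 11 members were above 0, the medians were -0.08 and -0.04, and limma again called no member. The members with the smallest p were Lgals3bp at -0.27 ± 0.05 (SE; limma adjusted p = 0.129), Eif2ak2 at -0.23 ± 0.09 (0.363), Ifi27 at 0.14 ± 0.06 (0.427), Xaf1 at 0.20 ± 0.09 (0.436) and Stat2 at -0.16 ± 0.08 (0.525). In Lgals3bp and Eif2ak2 all 4 cHet mice were below all 4 control mice, as in 2.10% of all genes; no member had them all above, as in 4.12%. In the authors' deposited table neither test gave a member a q under 0.05; the Wald test there gave 0.128% of genes higher and 0.0279% lower. Of the genes that rose in cKO, Ifit1 was at 2.20 ± 0.128 TPM in control and 2.13 ± 0.212 in cHet (SD, n = 4), Ifit3 at 10.6 ± 1.95 and 11.2 ± 2.60, Oasl2 at 5.11 ± 1.06 and 4.35 ± 0.727, and Rsad2 at 0.761 ± 0.199 and 0.786 ± 0.127.

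Both cKO and cHet carry Cre, and they differ in whether 1 or both Tardbp alleles are floxed. The cKO mice here are those compared with control, so these comparisons are not independent. Of 37 tested members 5 rose and none fell, where 2.41% of all genes rose and 2.61% fell. At an unadjusted p under 0.05 limma had 18 members higher and none lower, against 9.46% and 8.73% of all genes. Lgals3bp rose by 0.61 ± 0.05 on the log2 scale (SE; limma adjusted p = 6.64e-05), Oasl2 by 1.04 ± 0.18 (0.00459), Ifit1 by 0.80 ± 0.15 (0.00830) and Ifi27 by 0.47 ± 0.06 (0.00098). The fifth was Trim25, with cHet mice at 3.52, 3.04, 3.37 and 2.71 TPM against 3.88 to 4.45 in cKO (log2 change 0.35 ± 0.09, limma adjusted p = 0.0475). The call of Trim25 was lost in 15 of 22 alternatives, with a limma adjusted p of 0.122, 0.123, 0.0691 and 0.0733 without cKO replicates 1, 2, 3 and 4, of 0.104, 0.0669 and 0.104 without cHet replicates 2, 3 and 4, and of 0.0612, 0.0603, 0.0643 and 0.0644 without control replicates 1, 2, 3 and 4. After rescaling to equal totals Trim25 was not called (limma adjusted p = 0.0531), Ifitm3 was, and the other 4 calls held, so the count was again 5, where 2.43% of all genes rose. Rsad2 and Ifit3 each differed by 0.73 on the log2 scale, without passing the threshold (limma adjusted p = 0.0540 and 0.0724). The median difference of the members was 0.30, beside 0.00 over all genes, and 35 of 37 were above 0 where 52.0% of all genes were. In 13 members all 4 cKO mice were above all 4 cHet mice, as in 6.14% of all genes, and in none were they all below, as in 5.33%. Rsad2 and Oas1a are among the 18 and the 13, and passed the 1 TPM filter only through their level in cKO. With no filter on low values 4 of all 38 members were called, where 1.08% of all genes rose. By likelihood ratio, the authors' deposited table had 6 members higher at a q under 0.05 and none lower, where 1.87% and 1.91% of its genes were higher and lower. Those 6 were Lgals3bp, Oasl2, Ifit1, Ifi27, Trim25 and Rsad2, the last of which limma did not call. By the Wald test, the authors' deposited table had 8 higher, with Ifitm3 and Bst2 also included. It had none lower, against 2.48% and 2.47% of its genes.

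**Figure D2:**
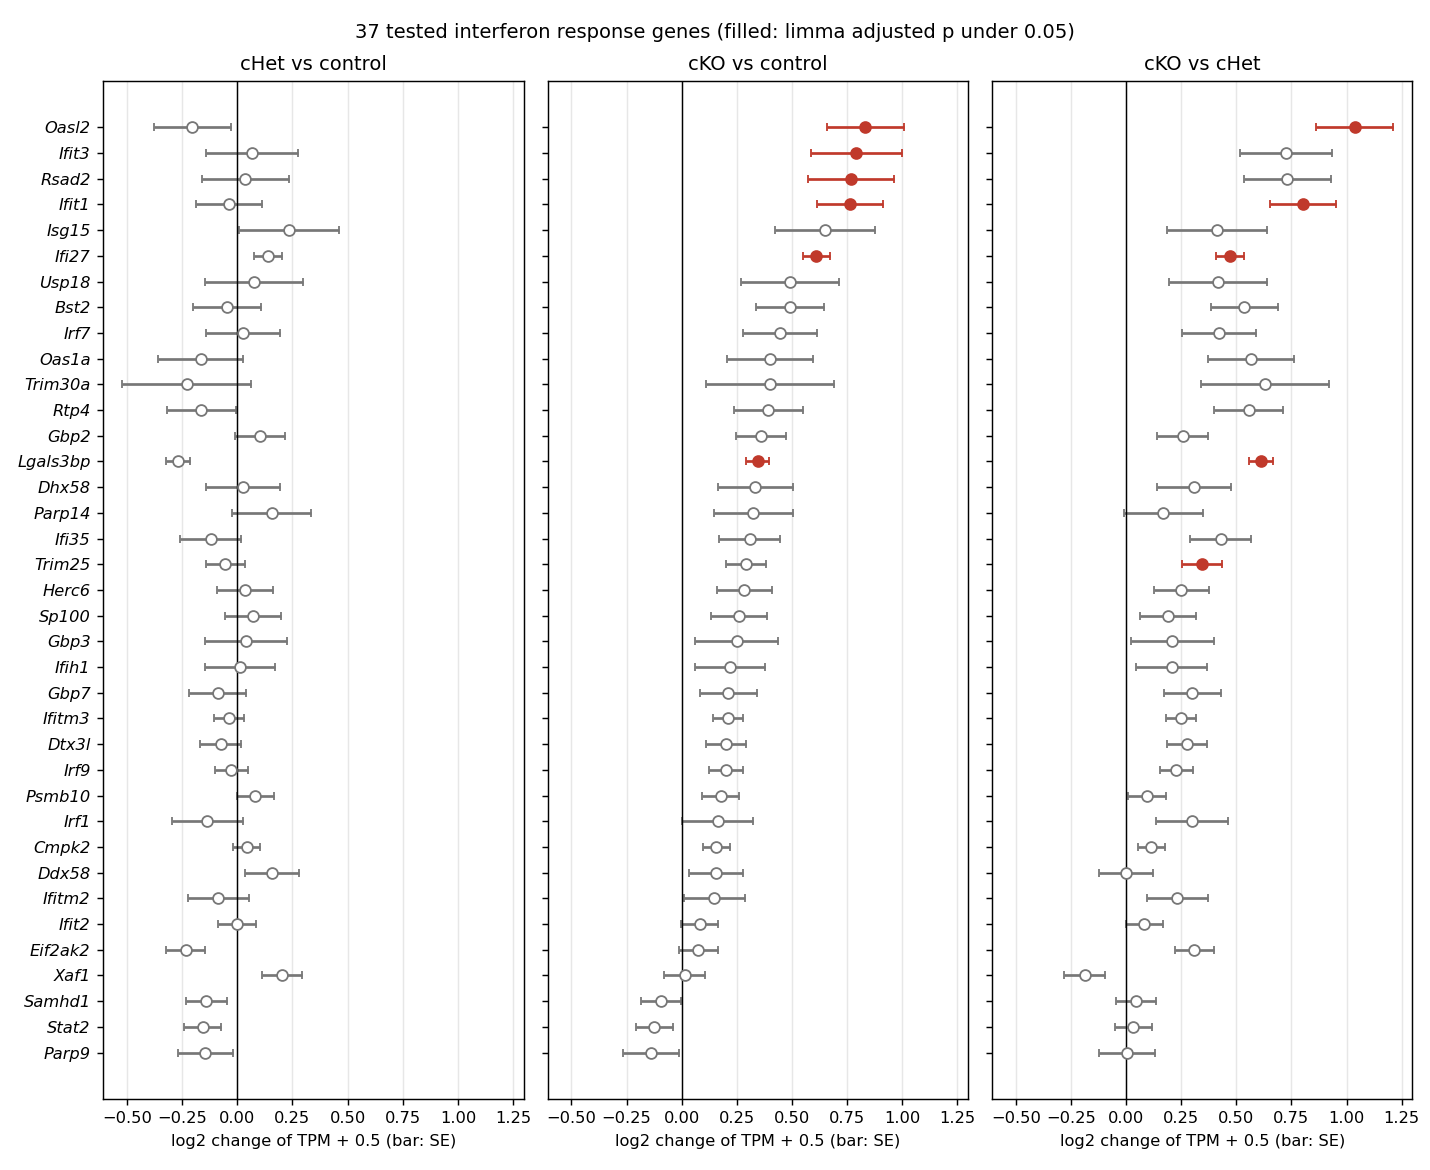
Log2 change with its SE (horizontal axes, on the log2(TPM + 0.5) scale) of the 37 tested genes in each comparison, in the order of cKO against control; filled points have a limma adjusted p under 0.05. The points of cHet against control spread from -0.27 to 0.23 around 0, and those of cKO lie mostly to the right of 0, with 6 called against control and 5 against cHet.

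The 4 cKO mice were not equal. The median deviation of the 38 members from their control mean, on the log2 scale, was 0.41 in cKO replicate 2, a male, and 0.19, 0.22 and 0.23 in cKO replicates 1, 3 and 4, while single control mice lay between -0.06 and 0.04 and cHet mice between -0.08 and 0.01. Among the cKO mice replicate 2 was the highest for 20 of the 38 members, and among all 12 mice it was the highest for 17. Without cKO replicate 2 limma called 4 of 36 tested members against control (Ifit1, Oasl2, Ifi27 and Lgals3bp; 3.29% of all genes rose) and the same 4 genes against cHet (1.59% of all genes rose). Without cKO replicate 1, the lowest by this measure, 8 members were called against control, where 4.91% of all genes rose. In Lgals3bp and Ifi27 replicate 2 did not stand out from the other cKO mice.

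**Figure D3:**
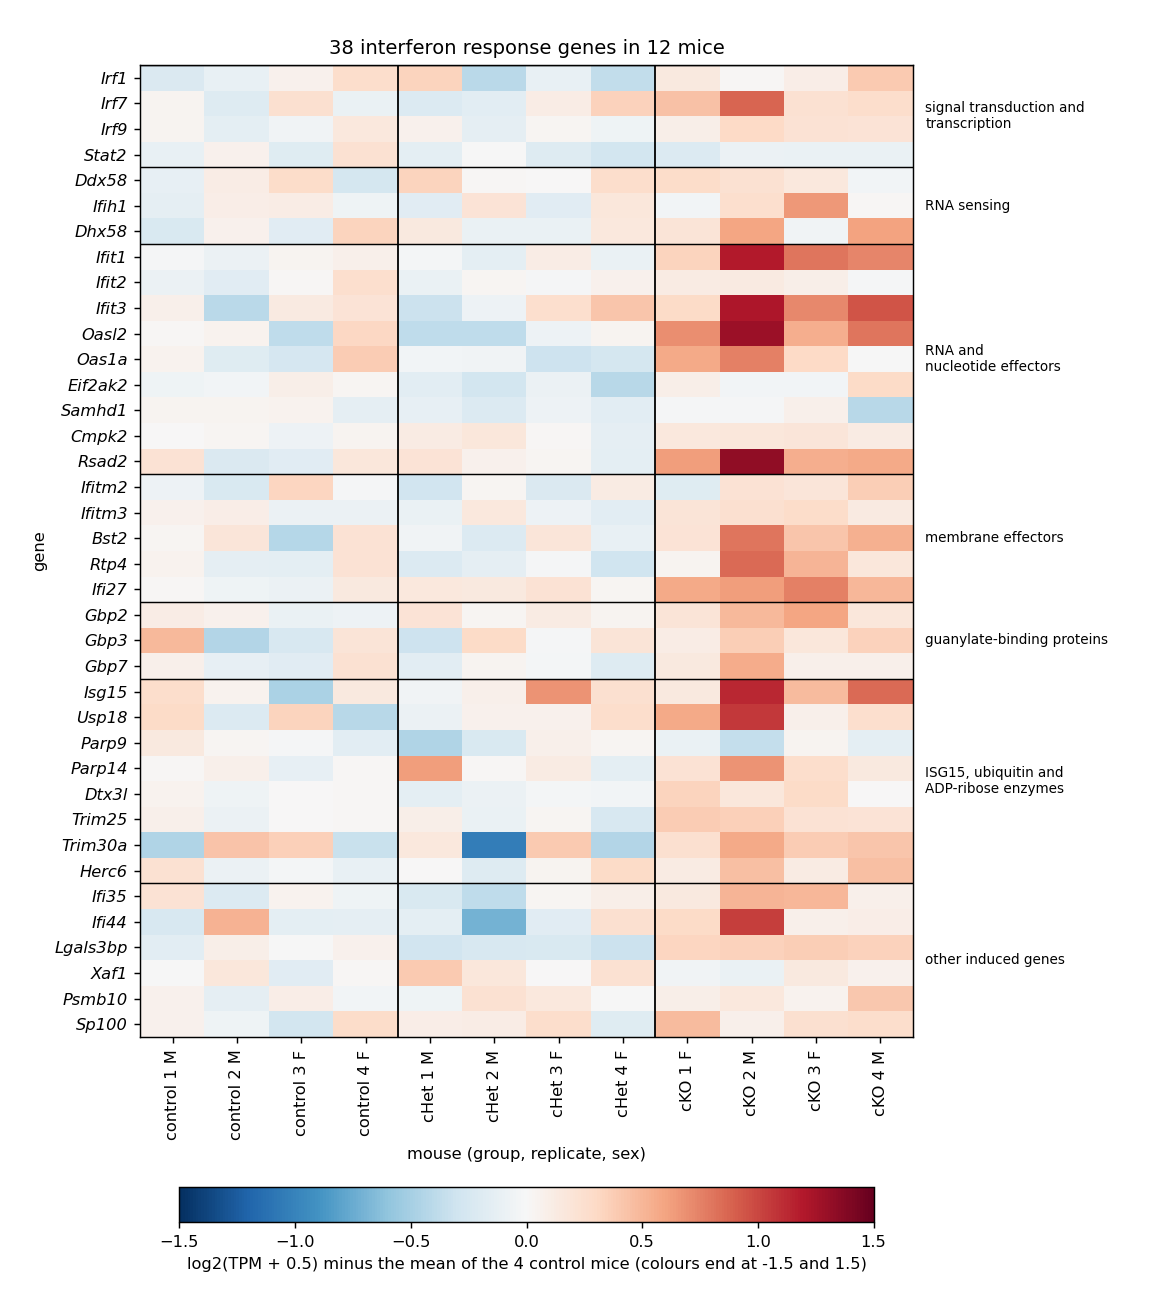
Deviation of each of 38 genes (rows, grouped by role) from the mean of the 4 control mice in each of 12 mice (columns, with group, replicate and sex), as a difference in log2(TPM + 0.5); the colour scale ends 1.5 above and below 0. The cKO columns are mostly red, most of all replicate 2, whose median deviation is 0.41, and the cHet columns are near those of control.

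Genes upstream of the members were examined from lists of the same pathway. The Ifnb1 transcript was listed at 0 in all mice but 1, a control mouse at 0.103 TPM. None of 11 tested genes of nucleic acid sensing and interferon induction was called; the smallest p against control were those of Irf5, a transcription factor gene, at 3.61 ± 0.625 and 5.54 ± 1.61 TPM, and of the adaptor gene Ticam1 at 2.56 ± 0.236 and 3.14 ± 0.168. Among 8 tested genes that restrain the pathway or clear nucleic acids none was called. The nearest were Rnaseh2a and Rnaseh2c, subunit genes of an enzyme that removes RNA from DNA, at 38.9 ± 4.01 and 45.5 ± 2.20 TPM in control and 46.4 ± 2.17 and 51.9 ± 1.45 in cKO.

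A further list of 50 interferon-induced genes, not among the 38, had 44 tested. Of these 5 rose against control and none fell, where 5.75% of all genes rose and 3.25% fell. The 5 include Ifit3b, between which and the called member Ifit3 reads can be split. Ifi27l2a, a relative of Ifi27, was at 10.98, 6.84, 6.14 and 7.87 TPM in control and 17.1, 16.8, 15.3 and 17.6 in cKO, so the groups were well apart. Its log2 change was 1.06 ± 0.19 (SE; limma adjusted p = 0.00523). The immunity-related GTPase gene Irgm1 rose from 7.79 ± 0.698 to 10.8 ± 1.21 TPM (SD, n = 4), the immunoproteasome gene Psmb8 from 4.69 ± 0.643 to 6.96 ± 1.20, and the membrane protein gene Ly6e from 133 ± 9.36 to 157 ± 7.25, beside Ifit3b. The median log2 difference of the 44 was 0.21. Against cHet 7 rose, among them Ly6e, Irgm1, Lgals9, Ifi27l2a, Ifit3b and Tap1, and none fell. Of all genes 2.41% rose and 2.61% fell in that comparison. In cHet against control the list had no call.

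Markers of cell types also differed between cKO and control, where 5.75% of all genes rose and 3.25% fell. All 10 microglia markers were tested and 7 rose in cKO against control, with a median log2 difference of 0.30; their summed level was 226 to 235 TPM in control, 229.6 to 248 in cHet and 281 to 299.6 in cKO, and no marker was at 0. Fcrls, a microglial surface gene, rose most, from 8.13 ± 0.809 to 14.5 ± 1.88 TPM (SD, n = 4). Of 7 astrocyte markers 3 rose (Gfap, Slc1a2 and Aldoc) and 2 fell (Slc1a3 and Gja1), with a summed level of 3068 to 3277 TPM in control and 3659 to 4013 in cKO. Of 6 oligodendrocyte markers 4 fell, among them Mog, Mag and Cnp. Against cHet 4 of the 10 microglia markers rose and none fell. Of the 7 astrocyte markers 4 rose and 2 fell in that comparison, and all 6 oligodendrocyte markers fell. Of all genes 2.41% rose and 2.61% fell in cKO against cHet. The share of mitochondrially encoded transcripts was 16.0% to 18.3% in control and 19.0% to 20.4% in cKO. The part of these shifts in the interferon result was not tested.

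Lists for vessels, the borders of the cord and blood cells were also measured. No endothelial and pericyte marker of 7 and no ependymal marker of 4 was called, and of 3 meningeal fibroblast markers Dcn rose. Of 6 lymphocyte markers 5 averaged under 1 TPM, and the sum was 2.23 to 3.88 TPM in control and 1.31 to 3.72 in cKO. Of 4 border macrophage markers 3 were under 1 TPM, with a sum of 1.64 to 4.66 TPM in control and 2.21 to 3.38 in cKO. Of 5 neutrophil and monocyte markers 3 were under 1 TPM, and the sum was 1.81 to 9.99 TPM in control and 6.02 to 11.02 in cKO, with no call. None of these markers was at 0 in all mice. The 3 red cell markers summed to 646 to 1663.2 TPM in control and 632 to 3131 in cKO without a call. Of 4 neuron markers Rbfox3 rose.

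**Figure D4:**
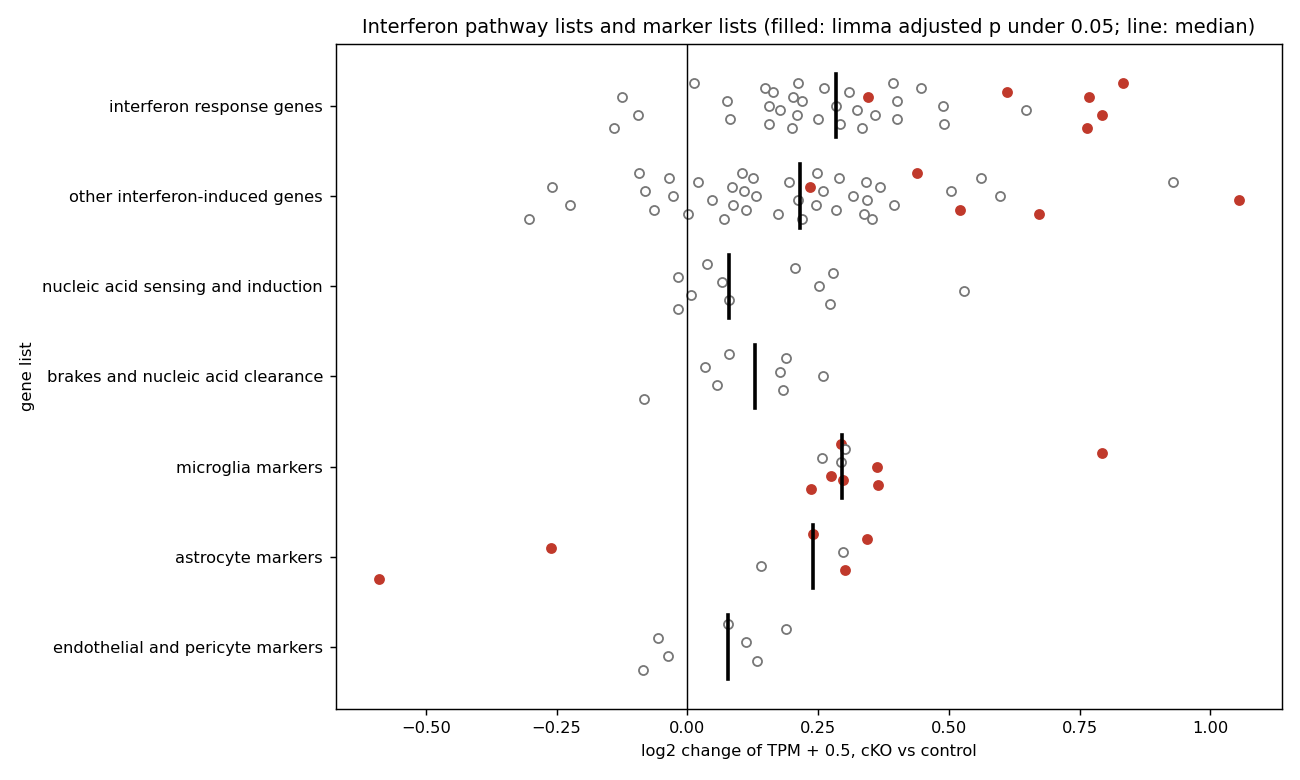
Log2 change in cKO against control (horizontal axis, log2(TPM + 0.5) scale) of each tested gene of the 38 interferon response genes, 3 further pathway lists and 3 marker lists; filled points have a limma adjusted p under 0.05 and the black line is the median. The medians of all the lists shown lie to the right of 0. They are 0.28 for the interferon response genes, 0.21 for the other interferon-induced genes and 0.30 for the microglia markers. The astrocyte markers are at 0.24, and the genes of brakes and nucleic acid clearance at 0.13. Nucleic acid sensing and induction is at 0.08, as are the endothelial and pericyte markers.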

How the data were processed

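Kallisto 0.44.0, sleuth 0.30.0 and build GRCm38 are named per the submitters' processing notes, without settings or annotation release. The authors deposited normalized TPM per gene, a signal that is never negative, for 36121 genes in 12 mice; depth is unknown, so no counting interval is given. The authors' deposited tables of comparisons gave p-values and q-values, and an effect score of which only the sign was used.

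The 15259 genes whose mean reached 1 TPM were kept, 0.5 was added, and log2 values were fitted with limma 3.58.1 in R 4.3.3 (lmFit, eBayes with trend, two-sided), all 12 mice in 1 fit, no covariate, Benjamini-Hochberg adjustment per comparison over all genes. Fold changes are on the log2(TPM + 0.5) scale and understate those of low genes. The step was tested on simulated data. Exact permutation tests were two-sided over 70 assignments, with 0.0286 the smallest p. Replicates are separate mice by the labels. Members, roles and lists were chosen with earlier results of these data known. Called members are named with full statistics, or the 5 with the smallest p where fewer than 5 were called, and up to 6 called genes per pathway list. Gene coordinates are from GENCODE M21 (GRCm38), which holds all 38 members; promoters are from RefSeq. Alternatives changed the pseudocount, filter, scaling, sex covariate, mice in the fit, trend and handling of repeated symbols. Some genes of the pathway and marker lists are not reported here.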

Additional observations from a re-analysis of the deposited data

Results flagged for a closer look

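Per-mouse TPM of each of 38 genes was examined in each group of 4 mice for a mouse whose gap to the nearest other took more of the group's range than Dixon's critical value allows. Of 114 such groups 6 held one, and chance alone gives about 1 in 20 groups.

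Of these, 3 were cKO replicate 2 as the highest cKO mouse. Rsad2 was 2.65 TPM there and 1.33 to 1.43 in the others, Gbp7 was 4.76 against 3.26 to 3.45, and Ifi44 was 2.17 against 0.871 to 1.08. Ifi44 was also high in control replicate 2, at 1.37 TPM against 0.597 to 0.685. Stat2 was lowest in cKO replicate 1, at 19.7 TPM against 21.1 to 21.4, and Samhd1 in control replicate 4, at 16.9 TPM against 19.2 to 19.3. No member's difference between genotypes differed between males and females at a limma adjusted p under 0.05.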

How the results depend on the processing

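The count of 6 members called in cKO against control lay between 4 and 8 without single mice, where 3.29% to 6.28% of all genes rose. Under the other alternatives it lay between 4 and 7, where 2.53% to 7.42% of all genes rose. With a mean of at least 5 TPM it was 4 of 23 tested, beside 7.42% of all genes. The count of 5 against cHet lay between 4 and 6 without single mice, where 1.59% to 2.21% of all genes rose. Otherwise it lay between 4 and 7, where 1.08% to 2.90% rose. That of cHet against control was 0 in all 23. Ifi27, Lgals3bp, Ifit1 and Oasl2 were called in every alternative in which they were tested, against control and against cHet; the highest limma adjusted p was 0.0387, that of Ifit1 against cHet. Ifit3 was lost in 8 of 23, also with no filter (limma adjusted p = 0.0748) and without trend (0.0513), and Rsad2 in 3 of 21, also with only the 8 mice compared (0.0570). Among the members whose single values were followed, those called and the 5 named in cHet against control, no direction reversed; in other members near 0 it could, since the number above 0 in cHet against control went from 17 to 11 after rescaling to equal totals. The cause of these changes was not tested. Adding Ifit3b to Ifit3 was chosen after seeing the data. No paired analysis was possible because the labels give no number shared between groups.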

Other observations

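Ifit3 was at 24.96 and 20.7 TPM in the cKO males and at 12.9 and 17.7 in the cKO females. The male minus female difference of the log2 change of Ifit3 was 0.91 against control (unadjusted p = 0.00819 and adjusted p = 0.99956, limma) and 1.10 against cHet (unadjusted p = 0.0027). With 2 mice of each sex per group, 4 of 37 members had an unadjusted p under 0.05 for this interaction against control and 5 against cHet, where 3.88% and 4.73% of all genes did, and none held after adjustment. The males of cKO are replicates 2 and 4, so a difference between the sexes and between these mice cannot be told apart.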
